A study of Macaca mulatta with 29 samples.

Results

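The genes described here are 9 genes of the p53 pathway and of apoptosis, taken by symbol: MDM2, CDKN1A, BBC3, BAX, FAS, GADD45A, SESN1, BCL2L1 and MCL1. The expression table holds 16048 genes, and 8 of the 9 symbols have a row in it. MDM2 was not analysed here. Of the 8 genes, 7 were tested, since they belong to the 11080 genes whose mean over all libraries reached 1 FPKM (fragments per kilobase of transcript, scaled to library size). CDKN1A, with a mean of 0.597 FPKM, was below that limit and was examined apart from the others.

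RNA was sequenced from rhesus macaque embryonic stem cells of the ORMES-6 line after 4 weeks with one of 5 endocrine-disrupting compounds or with the methanol vehicle, which also carried the compounds. The groups were vehicle (5 libraries), 30 uM of the herbicide atrazine (5), 10 nM of the plastics monomer bisphenol A (5), 5 uM of the plasticizer bis(2-ethylhexyl) phthalate (DEHP, 4), 100 nM of the surfactant perfluorooctanoic acid (PFOA, 5), and 25 nM of tributyltin chloride, an organotin biocide (5). All cells were 1 line, grown on inactivated mouse embryonic fibroblasts in 5% oxygen. Each treatment had 1 plate of 6 wells, so that effects of compound and of plate cannot be told apart, and p-values measure the spread between libraries of 1 plate, which may be technical.

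The transcription factor p53 is kept low by the ubiquitin ligase MDM2 and is released by DNA damage and other stress. It then induces genes that stop the cell cycle, such as CDKN1A, and genes that start apoptosis, such as BBC3, BAX and FAS. Apoptosis through mitochondria is set by the BCL2 family, in which BAX and BAK1 open the outer membrane, BCL2L1 and MCL1 prevent this, and BBC3 blocks the protective members. Pluripotent stem cells are known to be quick to enter apoptosis after DNA damage.

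Depth was read from the steps in the values of low genes, as a percentage of the deepest library. It was 14.2 to 27.2% in the bisphenol A libraries, which stand apart, and 41.2 to 100% in the other 24 libraries. Absolute depth is unknown. The summed level of 6 pluripotency markers was 1997 to 2497 FPKM in every library, and that of 8 markers of differentiated lineages was 4.00 to 10.4 FPKM, with CDX2 at 0 throughout. The 12 fibroblast markers summed to 91.1 to 146 FPKM, with DCN at 0 throughout and 6 of the 12 below a mean of 1 FPKM. Most of this sum came from COL1A1, COL1A2 and THY1, with means of 50.0, 30.8 and 25.0 FPKM over all libraries. The sum is therefore no clean measure of feeder cells. In bulk RNA, fewer cells of a type and less RNA per cell cannot be told apart.

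MCL1 was the most abundant of the 8 genes and CDKN1A the least. Over all 29 libraries the mean was 35.9 FPKM for MCL1, higher than 86.1% of genes in the table, and 10.3 FPKM for BAX. GADD45A had 6.00, SESN1 5.60 and BCL2L1 5.41 FPKM, near the middle of the table. BBC3 had 1.51 FPKM and FAS 1.08 FPKM. CDKN1A was higher than 26.8% of genes.

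**Figure D1:**
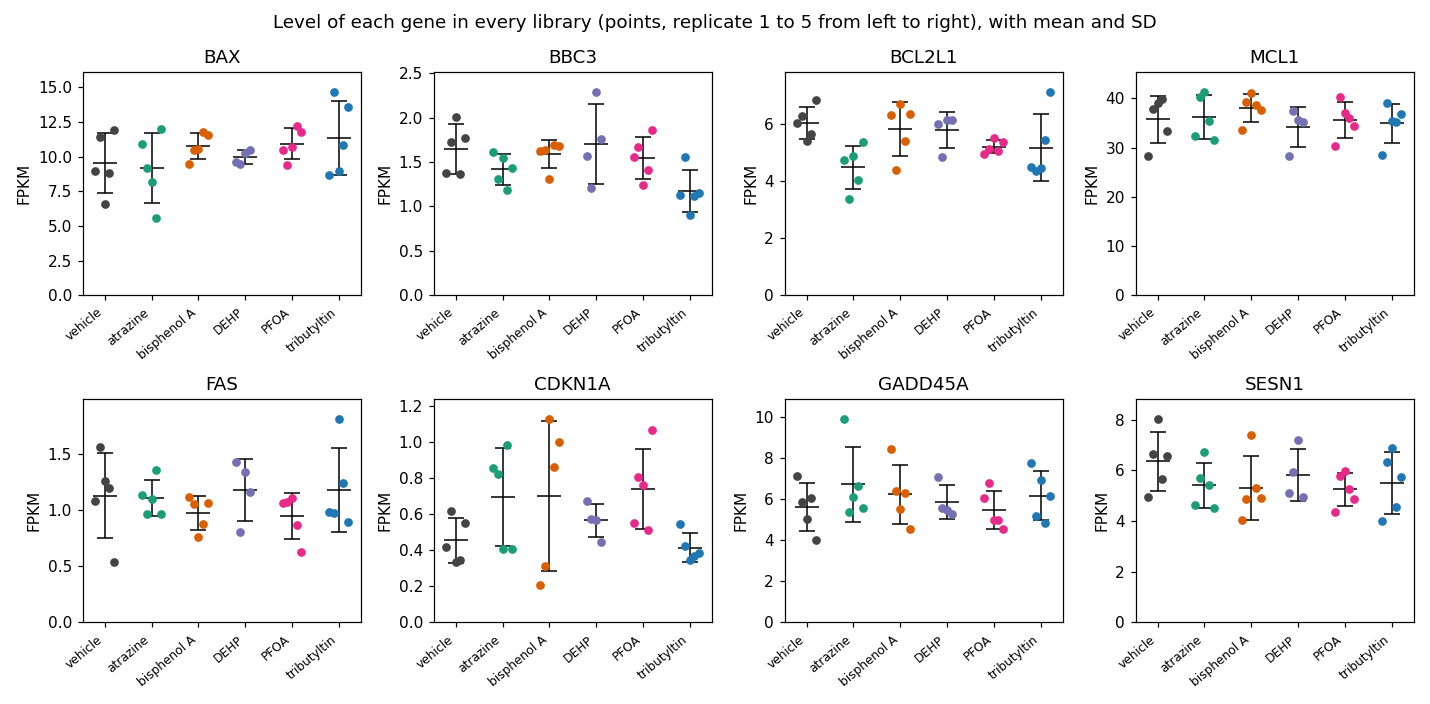
FPKM of the 8 genes in each library, by group, with 1 point per library and the group mean with its SD. Every compound overlaps vehicle in every panel, with the exception that the 5 atrazine libraries of BCL2L1, at 3.39 to 5.36 FPKM, all lie below the vehicle libraries, at 5.40 to 6.85 FPKM.

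Some of their relatives were more abundant and others less. In vehicle, the pro-apoptotic BNIP3 had 678 ± 44.2 FPKM (SD, n = 5) and PMAIP1, which encodes the p53-induced protein NOXA, had 271 ± 18.7 FPKM, against 1.65 ± 0.277 FPKM for BBC3 (PUMA). BAX had 9.54 ± 2.17 FPKM and the other pore-forming gene, BAK1, 6.58 ± 1.29 FPKM. Among protective genes MCL1 had 35.7 ± 4.82 FPKM, BCL2L2 7.40 FPKM and BCL2L1 6.04 ± 0.565 FPKM. Transcripts of the pro-apoptotic BNIP3 and PMAIP1 thus stood above that of MCL1, and BBC3 far below all of these. The family members BCL2A1 and BCL2L10 were lower still, with means of 0.0653 and 0.0191 FPKM over all libraries. The sestrin SESN1 had 6.36 ± 1.16 FPKM, less than its paralog SESN3 at 56.1 ± 8.95 FPKM and more than SESN2 at 1.81 to 2.48 FPKM. GADD45A had 5.61 ± 1.16 FPKM, GADD45B 23.3 ± 1.48 FPKM and GADD45G 3.89 ± 1.12 FPKM. CDKN1A (p21), at 0.455 ± 0.125 FPKM, was below another inhibitor of cyclin-dependent kinases, CDKN1B (p27), at 28.6 ± 3.90 FPKM. Over all libraries the inhibitor CDKN2D had 10.3 FPKM, while CDKN2A, CDKN2B and CDKN2C had 0.212, 0.0784 and 0.00938 FPKM, less than CDKN1A. The death receptor gene FAS had 1.13 ± 0.375 FPKM and its ligand FASLG 0.369 ± 0.243 FPKM. FPKM are scaled by transcript length. Since the rhesus build and the treatment of feeder reads are not given, levels of different genes can be set side by side only approximately.

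**Figure D2:**
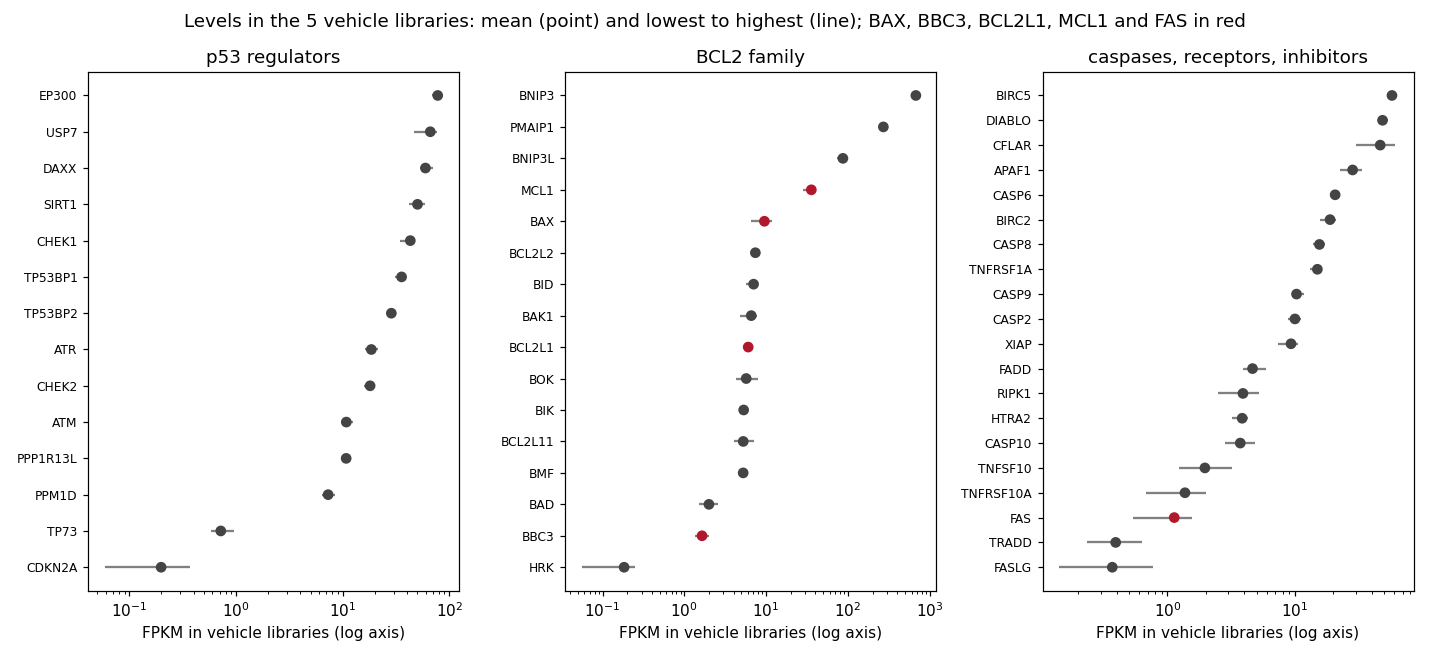
Levels in the 5 vehicle libraries on a log axis of FPKM, for p53 regulators, the BCL2 family, and caspases, death receptors and inhibitors with a vehicle mean of at least 0.1 FPKM. Points are means, lines run from the lowest to the highest library, and BAX, BBC3, BCL2L1, MCL1 and FAS are in red. MCL1 lies below BNIP3, PMAIP1 and BNIP3L, and BBC3 and FAS lie near the bottom of their panels.

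None of the 7 tested genes passed the test against vehicle with any compound. Differences of log2(FPKM + 1) were tested with limma, with Benjamini-Hochberg adjustment over all 11080 genes and a threshold of 0.05. With tributyltin 0 of 7 were called, where 1.25% of all tested genes were. With atrazine 0 of 7 were called (0.19% of all genes), with PFOA 0 of 7 (0.162%), with DEHP 0 of 7 (0.00903%) and with bisphenol A 0 of 7 (0%). At these background shares a set of 7 genes with no call is no departure from the rest of the table. At an unadjusted p under 0.05, limma counted 2 of the 35 combinations of gene and compound, BBC3 with tributyltin and BCL2L1 with atrazine. Of all tested genes, 10.5% had such a p with tributyltin, 6.88% with atrazine, 5.79% with PFOA, 7.93% with DEHP and 5.17% with bisphenol A. The mean of the 5 compounds against vehicle called 0 of 7 (0.253% of all genes, 0 of 7 at an unadjusted p under 0.05). The test over all 6 groups called 0 of 7 (1.25% of all genes), and BCL2L1 had the 1 unadjusted p under 0.05 (adjusted p = 0.372). Without the bisphenol A libraries the count was 0 of 7 in the 4 other comparisons with vehicle, the mean of the compounds and the test over groups.

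The estimates were small. They ran from -0.37 to 0.23 on the log2(FPKM + 1) scale, and their 95% intervals reached 0.21 to 0.33 to either side. The lowest bound of any interval was -0.60 and the highest was 0.54. The median over the 7 genes was -0.026 with tributyltin (-0.016 over all genes), -0.066 with atrazine (-0.0046), -0.054 with PFOA (-0.0060), 0.023 with DEHP (-0.0085) and -0.028 with bisphenol A (-0.017). All 5 comparisons share the vehicle libraries, so their values are not independent. In simulated data, the test against vehicle recovered 17.9 to 35.8% of changes of 0.3, 76.1 to 85.1% of 0.6 and 95.5 to 100% of 1 on this scale, depending on the compound. It also made 12 to 46 false calls per comparison among 11080 genes. These were 26 for tributyltin, 27 for atrazine, 12 for PFOA, 12 for DEHP and 46 for bisphenol A. The real data gave 138, 21, 18, 1 and 0 calls in the same order, so apart from tributyltin the real calls were about as few or fewer. The share of simulated calls that were false is not given here. The adjusted threshold depends on how many genes change, so recovery and false calls in the real data may differ.

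**Figure D3:**
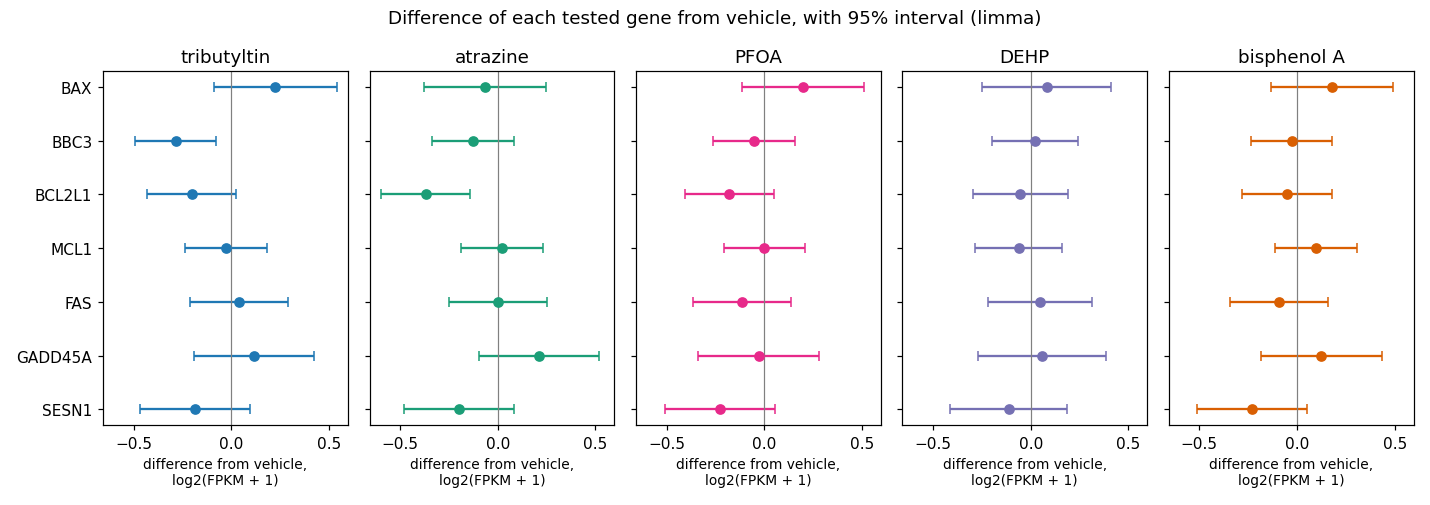
Difference from vehicle on the log2(FPKM + 1) scale for the 7 tested genes and 5 compounds, with 95% intervals from limma. The intervals of BBC3 with tributyltin and BCL2L1 with atrazine do not reach 0, and their adjusted p-values are 0.238 and 0.320.

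The 10 pairs of compounds gave the same count. For the 7 genes 0 of 70 combinations were called, 5 had an unadjusted p under 0.05, and the smallest adjusted p was 0.192. Of all tested genes, 2.32 to 15.9% had an unadjusted p under 0.05, depending on the pair. Over all tested genes, tributyltin differed from bisphenol A in 2.5%, from atrazine in 0.966%, from DEHP in 0.478% and from PFOA in 0.162%. Bisphenol A differed from PFOA in 0.271%, from atrazine in 0.135% and from DEHP in 0.0542%, and atrazine from PFOA, atrazine from DEHP and PFOA from DEHP in 0%. In the order of group means, neither neighbours nor the highest and lowest groups of any tested gene were called as different. The highest mean was between 1.12 times the lowest (MCL1) and 1.45 times the lowest (BBC3).

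Among the pro-apoptotic genes, BBC3 (human Entrez 27113), whose product binds and blocks BCL2L1 and MCL1, had its lowest group mean with tributyltin. In vehicle it had 1.37, 1.73, 2.00, 1.36 and 1.77 FPKM in replicates 1 to 5, and with tributyltin 1.13, 1.56, 0.903, 1.12 and 1.15 FPKM. All 5 tributyltin libraries lay below the vehicle mean, but the highest of them lay within the vehicle range. The difference was -0.28 (SE 0.10, limma adjusted p = 0.238), and with a pseudocount of 0.1 FPKM it was -0.46 (adjusted p = 0.222). BBC3 rested on 16 to 28 reads per tributyltin library and 22 to 45 per vehicle library. The other group means were 1.71 ± 0.451 FPKM with DEHP (SD, n = 4), 1.59 ± 0.159 with bisphenol A, 1.55 ± 0.238 with PFOA and 1.42 ± 0.174 with atrazine (SD, n = 5 each).

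BAX (581), which forms pores in the mitochondrial outer membrane, had its highest mean with tributyltin, 11.3 ± 2.70 FPKM (n = 5), against 9.54 ± 2.17 in vehicle. The tributyltin libraries had 8.65, 14.6, 8.94, 10.9 and 13.6 FPKM and the vehicle libraries 8.99, 11.4, 6.56, 8.80 and 11.9 FPKM. Replicates 2 and 5 were the highest in both groups, and the ranges overlapped for most of their length. The difference was 0.23 (SE 0.15, adjusted p = 0.677). The means of the other groups lay between 9.16 ± 2.51 FPKM with atrazine and 10.9 ± 1.12 FPKM with PFOA.

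FAS (355), the death receptor that triggers caspase 8, had group means from 0.948 ± 0.203 FPKM with PFOA to 1.18 ± 0.277 FPKM with DEHP, and the vehicle libraries alone ran from 0.541 to 1.57 FPKM. Its largest difference was -0.12 with PFOA. The RefSeq annotation of the macaque assembly T2T-MMU8v2.0 places a long noncoding gene over FAS and a small nuclear RNA gene over SESN1. No strand setting is given in the sources used here, so reads of such neighbours cannot be told apart.

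Among the protective genes, BCL2L1 (598; BCL-XL) was the only one of the 8 genes whose libraries with a compound did not overlap those of vehicle. The vehicle libraries had 6.04, 6.28, 5.40, 5.65 and 6.85 FPKM in replicates 1 to 5, and the atrazine libraries 4.74, 3.39, 4.87, 4.05 and 5.36 FPKM. The highest atrazine library lay just under the lowest vehicle library. Of all tested genes, 0.749% were lower with atrazine without overlap. The difference was -0.37 (SE 0.11, limma adjusted p = 0.320), and over the alternatives run its adjusted p was between 0.0496 and 0.626. The lowest value came from the fit that took replicate number as a block, the 1 alternative in which BCL2L1 passed. With the mean level of the 6 fibroblast markers past the filter as a covariate, the adjusted p was 0.0709. The summed fibroblast markers were 103 to 133 FPKM with atrazine and 91.1 to 131 FPKM in vehicle, and their part in the result was not tested.

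With tributyltin, BCL2L1 had 4.50, 4.37, 4.47, 5.44 and 7.13 FPKM, so that 3 libraries lay below every vehicle library and 1 above every vehicle library. The difference was -0.20 (SE 0.11, adjusted p = 0.562). PFOA gave a mean of 5.21 ± 0.233 FPKM, DEHP 5.79 ± 0.625 and bisphenol A 5.84 ± 0.939 FPKM, with differences of -0.18, -0.054 and -0.051.

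MCL1 (4170), a short-lived protein that also restrains BAX and BAK1, had the smallest ratio of its highest to its lowest group mean among the 8 genes. Its means were 35.7 ± 4.82 FPKM in vehicle, 36.2 ± 4.42 with atrazine, 38.1 ± 2.80 with bisphenol A, 34.2 ± 4.08 with DEHP, 35.6 ± 3.65 with PFOA and 35.0 ± 3.95 with tributyltin. Its differences from vehicle ran from -0.061 with DEHP to 0.097 with bisphenol A.

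CDKN1A (1026), the p53 target that holds cells before DNA replication, was detected in all 29 libraries but with few reads. Its vehicle libraries had 0.420, 0.616, 0.337, 0.347 and 0.554 FPKM, from 10, 21, 9, 9 and 9 reads. The PFOA libraries had 0.554, 0.809, 0.761, 0.513 and 1.07 FPKM, from 13, 26, 20, 10 and 15 reads. All 5 PFOA libraries were above the vehicle mean and 3 were above the highest vehicle library, but the ranges overlapped. The difference of means was 0.286 FPKM (n = 5 each, exact permutation test, two-sided, p = 0.0397, and p = 0.198 adjusted over the 5 compounds). The smallest p this design allows is 0.00794, and without 1 library at a time p was between 0.0318 and 0.0794. In limma without the filter on low genes the difference was 0.25 (adjusted p = 0.914).

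The atrazine libraries of CDKN1A had 0.857, 0.821, 0.407, 0.987 and 0.410 FPKM, so 3 lay above and 2 within the vehicle range (exact permutation p = 0.111). The bisphenol A libraries had 0.207, 0.313, 1.13, 0.863 and 1.00 FPKM from 1, 2, 9, 8 and 7 reads, with 2 below and 3 above every vehicle library (exact permutation p = 0.206). Those with DEHP ran from 0.448 to 0.674 FPKM and those with tributyltin from 0.345 to 0.548 FPKM (exact permutation p = 0.175 and p = 0.579). PFOA had the highest mean, 0.741 FPKM, and tributyltin the lowest, 0.414 FPKM.

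GADD45A (1647), a stress gene with roles in growth arrest and repair, had 7.12, 5.86, 5.02, 6.06 and 4.02 FPKM in vehicle and 9.87, 5.37, 6.11, 6.62 and 5.55 FPKM with atrazine. Replicate 1 was the highest in both groups, and the other 4 atrazine libraries lay within the vehicle range. The difference was 0.21 (SE 0.15, adjusted p = 0.838). The other group means were 5.45 ± 0.914 FPKM with PFOA, 5.83 ± 0.825 with DEHP, 6.16 ± 1.21 with tributyltin and 6.23 ± 1.43 with bisphenol A.

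SESN1 (27244), a p53 target that restrains growth signalling through mTORC1, had its highest mean in vehicle and lower means with all 5 compounds. The vehicle libraries had 4.94, 6.63, 8.02, 5.65 and 6.57 FPKM in replicates 1 to 5, those with PFOA 4.35, 5.80, 5.96, 5.27 and 4.89 FPKM, and those with bisphenol A 4.04, 4.89, 7.41, 5.30 and 4.90 FPKM. Every compound group overlapped vehicle, and in these 3 groups the replicate 1 library was the lowest and the replicate 3 library the highest. The differences were -0.23 with bisphenol A and PFOA, -0.20 with atrazine, -0.19 with tributyltin and -0.11 with DEHP, with adjusted p-values of 0.721 to 0.981. For the mean of the 5 compounds the difference was -0.19 (SE 0.11, adjusted p = 0.774).

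Several of the genes differed by replicate number. The labels number the libraries 1 to 5 in each group and do not say what the number marks. An F test of the number terms, in a fit with group and number and chosen after seeing the data, called 4 of the 7 tested genes, SESN1 (adjusted p = 2.54e-05), MCL1 (3.26e-05), GADD45A (0.0010) and BCL2L1 (0.0203), where it called 45.3% of all genes. BAX (adjusted p = 0.109), FAS (0.227) and BBC3 (0.877) were not called. With 7 genes, this share is not read as a difference from the rest of the table. BAK1 (adjusted p = 0.0370) was called as well.

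SESN1 was highest in replicate 3 in 6 of 6 groups and below the group mean in replicate 1 in all of them. MCL1 was below the group mean in replicate 1 in 6 of 6 groups and the lowest library in 5 of them. Its replicate 1 libraries had 28.3 FPKM in vehicle, 32.4 with atrazine, 33.6 with bisphenol A, 28.2 with DEHP, 30.4 with PFOA and 28.5 with tributyltin. GADD45A took the opposite course, with replicate 1 above the group mean in 6 groups and the highest in 5. BCL2L1 was lowest in replicate 2 in 4 of 6 groups, and above the group mean in replicate 5 in all 5 groups that have one. On the log2 scale the mean deviation in replicate 1 was -0.25 for SESN1, -0.23 for MCL1 and 0.32 for GADD45A, larger in size than any difference of the same gene from vehicle (at most -0.23, 0.097 and 0.21).

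**Figure D4:**
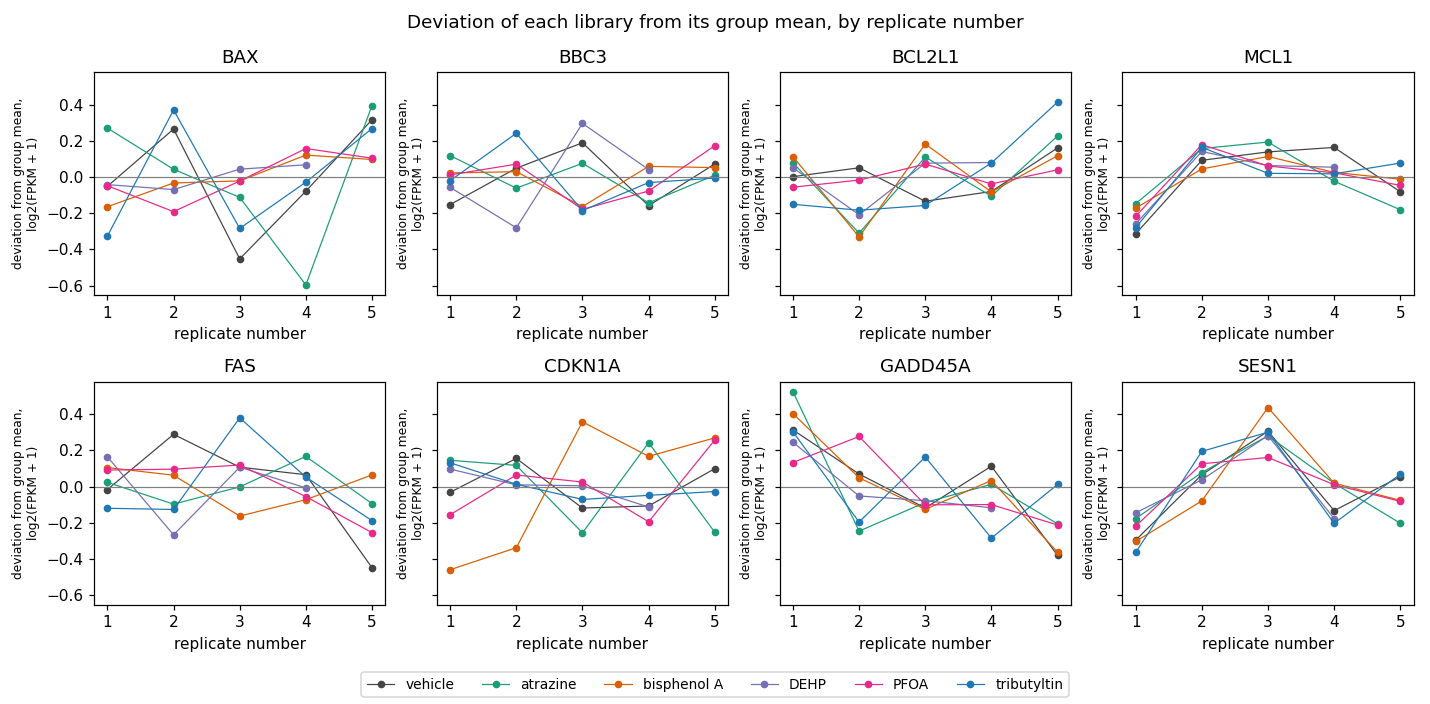
Deviation of each library from its group mean on the log2(FPKM + 1) scale, by replicate number. Points of 1 group are joined only to make the group visible, since replicates have no order. SESN1 shows its 6 replicate 3 libraries above 0, and MCL1 and SESN1 their 6 replicate 1 libraries below 0.

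Other measures moved with the number. The replicate 1 library had the highest summed fibroblast markers in 5 of 6 groups, with a median of 122 FPKM against 102 to 116 FPKM for the other numbers. This sum comes mostly from COL1A1, COL1A2 and THY1. The replicate 5 libraries were the shallowest in 4 groups, at 41.2 to 53.1% of the deepest library outside bisphenol A, against 57.3 to 100% for the other numbers. The part of either in the pattern of these genes was not tested.

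SESN1 and MCL1 varied together from library to library. Of 28 pairs among the 8 genes, 1 was called after Benjamini-Hochberg adjustment over the 28 pairs. After subtracting group means, Pearson's r of SESN1 and MCL1 was 0.72 and Spearman's rho 0.74 over 29 libraries (permutation test within groups, adjusted p = 0.00196 and 0.00112). Without the 2 libraries farthest from the median, r was 0.70, and over all libraries without subtraction it was 0.59 (permutation test, adjusted p = 0.0168; rho 0.60, adjusted p = 0.0221). The permutations treat libraries as exchangeable, so these p-values do not allow for the replicate number. After removing the replicate number as well, r was 0.33, which was not tested. The correlation was smaller once differences between replicate numbers were taken out.

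**Figure D5:**
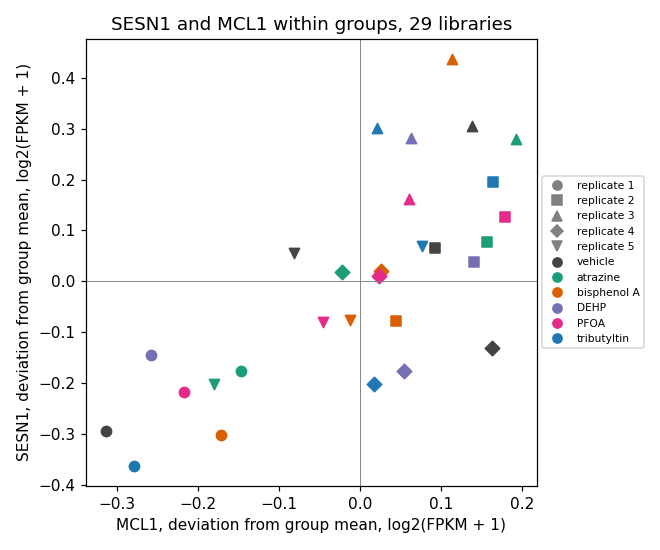
SESN1 against MCL1, each as the deviation from its group mean on the log2(FPKM + 1) scale, with 1 point per library, colour for the group and shape for the replicate number. The 6 replicate 1 libraries lie at the lower left and the 6 replicate 3 libraries at the upper right.

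For each tested gene, the genes outside the 8 with the highest r were also picked. Such an r is the highest of very many, so it is not set against the r of the 28 pairs. After subtracting group means, over the 29 libraries, whose depth and replicate number enter both genes of a pair, MCL1 was most like ASPH, PRRC1 and SLC37A3 (r = 0.91 each). BCL2L1 was most like USP11 (r = 0.87), POLDIP3 (0.86) and RAB34 (0.83), and SESN1 most like KLHDC2 (0.86), H3F3B (0.85) and EIF3E (0.84). The highest r was 0.85 for GADD45A, 0.76 for FAS, 0.75 for BAX and 0.56 for BBC3.

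The genes also differed in how far their spread exceeded counting error. Whole reads could be recovered for 6 of the 8 genes, in all 29 libraries within 0.05 of a whole number, and for 54.4% of 1000 sampled genes. The true numbers could be a whole multiple of these. SESN1, at 25 to 290 reads per library, had a variance between libraries of 2.31 to 7.51 times that from counting in all 6 groups, and GADD45A 1.21 to 6.98 times. BBC3, at 6 to 46 reads, had a variance below that from counting in 5 of 6 groups, and 2.27 times in the DEHP group. Without molecular identifiers, amplified reads are not independent molecules, and these figures cover counting error only.

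Upstream of these genes, the listed regulators of p53 were not called with any compound. Of 17 listed regulators, 15 had a row and 12 were tested, and 0 of 12 passed against vehicle for each compound, with 0 to 3 at an unadjusted p under 0.05 (limma). Their median difference was between -0.11 with DEHP and -0.063 with bisphenol A, against -0.0085 and -0.017 over all genes. The kinase gene ATR, which signals replication stress to p53, was -0.33 with DEHP (adjusted p = 0.458), where its libraries, at 12.9 to 15.9 FPKM, lay below those of vehicle, at 16.1 to 21.4 FPKM. Of all tested genes, 1.64% were lower with DEHP without overlap. TP53BP2, which encodes a p53-binding protein, was -0.23 with PFOA (adjusted p = 0.287). MDM4 was not analysed here.

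Of 26 listed p53 targets in arrest, repair and metabolism, 23 were tested and 0 passed against vehicle with any compound, with 1 to 4 at an unadjusted p under 0.05. Their median difference lay between -0.067 with tributyltin and -0.0059 with atrazine, and that of all genes between -0.017 and -0.0046 over the 5 compounds. GDF15, a secreted stress cytokine, had 1.25 ± 0.337 FPKM in vehicle and 2.60 ± 0.675 FPKM with atrazine (n = 5 each), a difference of 0.67 (adjusted p = 0.110). Its atrazine libraries, at 1.83 to 3.63 FPKM, lay above the vehicle libraries, at 0.943 to 1.76 FPKM, as in the 0.424% of genes higher without overlap. PLK2, a p53-induced kinase, was -0.41 with DEHP (adjusted p = 0.200), at 3.95 to 5.81 FPKM against 5.88 to 8.97 FPKM in vehicle. Such a separation, lower with DEHP, was found in 1.64% of all tested genes. In the test over 6 groups PLK2 was the 1 of 23 called (adjusted p = 0.00323), where 1.25% of all tested genes were. Its highest group mean was 8.39 ± 1.06 FPKM with bisphenol A, the shallowest group, and its lowest 5.04 ± 0.809 FPKM with DEHP. With tributyltin, PCNA, the sliding clamp of DNA replication, which was singled out after its values were seen, had a difference of 0.33 (adjusted p = 0.146, and 0.0480 with a block for the replicate number).

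Of 13 listed p53 targets in apoptosis, 9 were tested and 0 passed against vehicle with any compound, with 1 or 2 at an unadjusted p under 0.05. Their median lay between 0.00097 with PFOA and 0.13 with atrazine. PMAIP1 had 271 ± 18.7 FPKM in vehicle and 343 ± 63.0 FPKM with PFOA, a difference of 0.32 (adjusted p = 0.641) with ranges that overlapped. With DEHP PMAIP1 had 339 ± 13.3 FPKM (n = 4), a difference of 0.32 (SE 0.12, adjusted p = 0.521). Its 4 DEHP libraries, at 327 to 354 FPKM, lay above the vehicle libraries, at 256 to 303 FPKM, as in the 0.903% of genes higher with DEHP without overlap. APAF1, the scaffold on which caspase 9 is activated, had differences of -0.24 with PFOA (adjusted p = 0.680) and -0.22 with tributyltin (adjusted p = 0.378, and 0.0402 with the block).

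Within the BCL2 family, BNIP3 fell with tributyltin. BNIP3 (664), which acts in mitophagy and is induced by low oxygen, was the 1 of 11 tested family members called, where 1.25% of all tested genes were. BNIP3 fell from 678 ± 44.2 to 494 ± 27.6 FPKM (n = 5 each), a difference of -0.45 (adjusted p = 0.0041). The 5 tributyltin libraries, at 456 to 533 FPKM, lay below the vehicle libraries, at 634 to 750 FPKM, as for 1.71% of genes lower without overlap. BNIP3 was not called with atrazine, at 577 ± 58.3 FPKM (difference -0.23, adjusted p = 0.551), or with PFOA, at 596 ± 51.1 FPKM (-0.19, adjusted p = 0.846). In each of these groups 4 of 5 libraries lay below the lowest vehicle library, and all these comparisons share the vehicle libraries. The differences were -0.11 with DEHP and -0.071 with bisphenol A. With tributyltin, its relative BNIP3L had a difference of -0.30 (adjusted p = 0.0886, and 0.0041 with the block). The call of BNIP3 with tributyltin was lost with quantile normalization (adjusted p = 0.147) and with only the 2 groups compared in the fit (0.0776). BAK1 was not called with any compound (adjusted p of 0.923 or above), and BCL2 was not analysed here.

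The other 4 compounds called 0 of 11 in the BCL2 family, with 0 to 2 at an unadjusted p under 0.05 (limma). Over the 5 compounds the median difference ran from -0.083 with tributyltin to 0.024 with PFOA.

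Of the caspases, death receptors and inhibitors reported here, 17 were tested and 0 passed against vehicle with any compound, with 0 to 3 at an unadjusted p under 0.05 (limma). Their median difference ran from -0.046 with PFOA to 0.031 with atrazine. FADD, the adaptor that joins FAS to caspase 8, was 0.34 with tributyltin (SE 0.13, adjusted p = 0.312). CASP8, the initiator caspase below FAS, was -0.37 with PFOA (adjusted p = 0.336) and -0.31 with DEHP (adjusted p = 0.505). Its libraries had 10.6 to 13.1 FPKM with PFOA and 11.4 to 13.5 FPKM with DEHP, all below the vehicle libraries at 13.9 to 17.1 FPKM. Of all tested genes, 1% were lower without overlap with PFOA and 1.64% with DEHP, and both comparisons share the vehicle libraries.

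Of the paralogs and other inhibitors of cyclin-dependent kinases, 6 of 10 listed were tested and 0 passed against vehicle, with 0 to 2 at an unadjusted p under 0.05 and medians from -0.050 with bisphenol A to 0.067 with PFOA. GADD45G, a paralog of GADD45A, had 3.89 ± 1.12 FPKM in vehicle and 6.30 ± 2.69 FPKM with tributyltin, a difference of 0.52 (adjusted p = 0.431, and 0.0348 with the block). CDKN2D, an inhibitor of CDK4 and CDK6, was -0.41 with bisphenol A (adjusted p = 0.541) and -0.40 with tributyltin (adjusted p = 0.127, and 0.0402 with the block).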

How the data were processed

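The deposited table gives FPKM per gene, which the authors had normalized. Tools named per the submitters' processing notes are Cuffdiff 2.2.1, TopHat2 2.1.1 and SAMtools. The notes name a mouse build (GRCm38.p5) and not what it was used for. The rhesus build and the treatment of feeder reads are not given in the sources used here. All 8 human symbols matched macaque RefSeq symbols. Groups come from the library titles.

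Values were tested as log2(FPKM + 1) with limma 3.58.1 in R 4.3.3 (two-sided, mean-variance trend, 29 libraries in 1 fit) where a gene's mean reached 1 FPKM, with Benjamini-Hochberg adjustment over 11080 genes. Fold changes on this scale understate those of low genes. CDKN1A was tested with an exact permutation test, and correlations with 100000 permutations (28 pairs, as MDM2 was not analysed here). No count model was used, since whole reads were recovered for only 54.4% of sampled genes. The scripts were tested on simulated data.

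The labels do not say that equal replicate numbers share an origin. As a check, each library's deviations from its group mean were correlated with those of the vehicle library of equal number. With tributyltin all 5 correlations exceeded 0.1 (lowest 0.175, median 0.58), which was not so for the other compounds. Their lowest values were -0.255 to 0.00045, but their medians were 0.42 with atrazine, 0.28 with DEHP, 0.25 with PFOA and 0.18 with bisphenol A. This limit on the lowest value thus does not show that the number is irrelevant for them. By this rule, a fit with the number as a block is given beside tributyltin results where it changes a call. For other compounds and the mean of the compounds it is given only as an alternative, without this check behind it.

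The genes and the lists were chosen with earlier results of these data known. Named are the 8 genes, the 3 most alike genes of the 3 with the highest r, list genes past the threshold, the 2 of each list with the smallest p, and MDM4, BCL2 and BAK1. A few list genes are not reported here and were left out of the list counts. Alternatives were other pseudocounts, filters, scalings, fewer groups, the block, no trend, weights, a fibroblast marker covariate, and fits without 1 library.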

Additional observations from a re-analysis of the deposited data

Results flagged for a closer look

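In 48 groups of libraries, formed by the 8 genes and 6 conditions, a library was set against the others of its group by Dixon's gap test at 95%, and 4 groups had a library far from the rest. Chance alone gives about 1 in 20 groups.

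GADD45A, the growth arrest gene, was far above its group in replicate 1 of atrazine, at 9.87 FPKM against 5.37 to 6.62 FPKM in the other 4 libraries. It was also far above its group in replicate 1 of DEHP, at 7.06 FPKM against 5.27 to 5.56 FPKM. Replicate 1 was the highest GADD45A library in 5 of 6 groups.

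BCL2L1, the protective BCL-XL gene, was far below its group in replicate 2 of DEHP, at 4.86 FPKM against 6.01 to 6.15 FPKM in the other 3 libraries. Replicate 2 was the lowest BCL2L1 library in 4 of 6 groups.

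BBC3, the PUMA gene, was far below its group in replicate 3 of bisphenol A, at 1.31 FPKM against 1.63 to 1.69 FPKM. The BBC3 libraries of this group rested on 6 to 12 reads each, and their variance was 0.0821 of that from counting error.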

How the results depend on the processing

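The count of called genes among the 7 tested stayed at 0 for tributyltin, PFOA, DEHP and bisphenol A against vehicle, the mean of the compounds, the 6 groups and the 10 compound pairs, under the 41 or 42 alternatives run for each. Leaving out each library gave 0 to 0 calls in all of them, atrazine included. The 1 exception was atrazine with the replicate number as a block, where the count was 1, BCL2L1 at an adjusted p of 0.0496. The labels do not give the number a meaning. With this block over all genes, tributyltin called 420 genes in place of 138, atrazine 84 in place of 21, PFOA 63 in place of 18, DEHP 30 in place of 1 and bisphenol A 3 in place of 0. The block brought GDF15 with atrazine to an adjusted p of 0.0192 and SESN1 for the mean of the compounds to 0.119 (limma, unadjusted p = 0.0029). With the block, SESN1 had an unadjusted p of 0.0052 with bisphenol A, 0.0056 with PFOA, 0.015 with atrazine and 0.021 with tributyltin. With DEHP it was 0.14, and the adjusted p-values of these 5 comparisons were 0.197 to 0.542. The share of all genes at such an unadjusted p with the block is not given here. SESN1 was lower than the vehicle library of the same number in 23 of 24 libraries. Among the other genes of the 8 this count ran from 6 (CDKN1A) to 18 (BCL2L1), and for BNIP3 it was 22. The 24 values reuse the 5 vehicle libraries, so they are not independent, and the share over all genes was not computed. For tributyltin, the block changed no call among the 7 genes.

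Of 1583 single differences of these genes and of BNIP3, BNIP3L and GADD45G under an alternative, 1567 kept their side of the threshold. Those of the 1567 that were not called also moved by less than the standard error of the main estimate. For called values the size of the move was not checked, and 0 called values changed sign. Among uncalled differences 17 of 40 changed sign under some setting, the largest of them 0.12 in size, so that no direction is read from these. Chosen after seeing the data were a fit with a pseudocount of 0.1 without a filter, the F test of the number, the exact tests and the recovered reads. In the first, CDKN1A had differences of 0.48 with atrazine, 0.59 with PFOA, 0.28 with DEHP, 0.36 with bisphenol A and -0.093 with tributyltin. None of these was called. Reads per library limit CDKN1A (1 to 27) and BBC3 (6 to 46) most.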

Other observations

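The balance of BAX, which opens the mitochondrial membrane, to its protective partners was not part of the comparisons and is given as ratios of FPKM without a test. BAX to BCL2L1 was 1.49, 1.82, 1.21, 1.56 and 1.73 in the vehicle libraries and 1.92, 3.35, 2.00, 2.00 and 1.90 in the tributyltin libraries, all 5 of which lay above the vehicle libraries. With PFOA the ratios were 2.11, 1.83, 1.93, 2.42 and 2.18, and all 5 lay above the vehicle libraries as well, the lowest only just. These comparisons share the vehicle libraries, and how many ratios of other genes separate in this way was not counted. Neither BAX nor BCL2L1 alone was called with tributyltin or PFOA. With atrazine the ratios were 2.30, 2.71, 1.67, 1.37 and 2.24, with 3 libraries above and 2 within the vehicle range. Ratios ran from 1.60 to 1.94 with DEHP and from 1.49 to 2.38 with bisphenol A, and both ranges overlapped that of vehicle. BAX to MCL1 was 0.168 to 0.355 in vehicle and 0.253 to 0.374 with tributyltin, ranges that overlapped. MCL1 to BCL2L1 was 4.70 to 7.24 in vehicle and 5.90 to 11.9 with atrazine, with 3 atrazine libraries above the vehicle range.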
